A study of Mus musculus with 11 samples.

Results

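The genes described here were 10 mucins and goblet cell products whose transcripts were measured by RNA sequencing of the mouse colon. They were the 5 secreted products *Muc2*, *Clca1*, *Fcgbp*, *Agr2* and *Tff3*, the transcription factor *Spdef*, and the 4 transmembrane mucins *Muc1*, *Muc3*, *Muc4* and *Muc13*. They were chosen by name from a table of 43346 genes. All 10 were in the table and all 10 passed the filter on low counts, which left 19863 genes for testing. The study set 5 germ-free male mice beside 6 humanized male mice, all Swiss Webster and all 8 to 10 weeks old. The humanized mice were germ-free mice that received 300 µL of a stool suspension from 1 healthy human donor by gavage at 4 to 5 weeks of age and were then left for 4 to 5 weeks. Polyadenylated RNA of colonic tissue was sequenced, and markers of muscle, stroma and immune cells as well as of the epithelium were found in it. Whether the tissue was taken at full thickness is not stated in the sources used here. All colonized mice carried the microbiota of the same donor, and no group with a mouse microbiota was among the samples.

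Mucus of the colon is built on MUC2, a gel-forming mucin that goblet cells fold in the endoplasmic reticulum, decorate with O-linked glycans, pack into granules and release into the lumen. AGR2 is a disulfide isomerase needed for MUC2 folding, FCGBP and CLCA1 are abundant proteins of the released mucus, TFF3 is a trefoil peptide secreted with it, and SPDEF drives maturation of goblet cells. The transmembrane mucins MUC1, MUC3, MUC4 and MUC13 stay anchored in the apical membrane, where they form the glycocalyx and can signal through their cytoplasmic tails. Several of them are made by absorptive colonocytes as well as by goblet cells.

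The libraries held 49097005 to 64148538 counts in germ-free mice and 39125290 to 54219854 in humanized mice. Levels are given as RPKM, reads divided by gene length and by the size of the library, scaled by the trimmed mean of M-values (TMM). LFC is the log2-fold change of humanized over germ-free mice, and a gene was called when its false discovery rate (FDR) in edgeR's exact test with Benjamini–Hochberg correction over all tested genes was below 0.01. The tissue differed between the groups in its marker genes. All 9 smooth muscle markers were called lower in humanized mice, with a median LFC of −1.79, and their summed level ran from 280 to 857 RPKM in germ-free and from 38.0 to 298 RPKM in humanized mice. Of 11 epithelial markers, 3 were called higher, and their summed level ran from 4560 to 6033 RPKM in germ-free and from 5104 to 7135 RPKM in humanized mice. Among the humanized mice, mouse 6 stood apart in *Fabp6*, the ileal bile acid binding protein, at 132 RPKM against 4.88 to 21.8 RPKM in the other 5.

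Of the 10 genes, 6 were called higher in humanized mice (*Fcgbp*, *Tff3*, *Muc1*, *Muc3*, *Muc4* and *Muc13*), none was called lower, and 4 were not called. Over all tested genes, 19.3% were called in either direction, 9.20% higher and 10.1% lower. The median LFC of the 10 genes was 0.54, beside 0.01 over all tested genes. In 4 of the 6 called genes the groups did not overlap, while groups with humanized mice entirely higher were found for 8.67% of all tested genes and the reverse for 9.73%. The 4 transmembrane mucins were all among the called genes (median LFC 0.94), as were 2 of the 5 secreted products (median LFC 0.46). The table's row *Clca1* is not the goblet cell gene of that name, as given below, and with the goblet cell gene in its place 3 of the 5 secreted products were called (median LFC 0.53). As the RNA came from tissue of mixed cells, more cells of a type and more RNA per cell cannot be told apart in any of these values. Only *Muc1* and *Muc13* of the 10 were called by edgeR's quasi-likelihood test at the same threshold, which called 13.6% of all tested genes. The same 2 genes alone were called when libraries were scaled to their total counts, where 22.1% of all tested genes were called, or to the 11 epithelial markers, where 16.4% were. Those scalings moved the median LFC of all tested genes to −0.18 and −0.23, and the called genes of the whole table went from 1827 higher and 1999 lower to 773 higher and 3609 lower with total counts and to 519 higher and 2746 lower with epithelial markers.

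**Figure D1:**
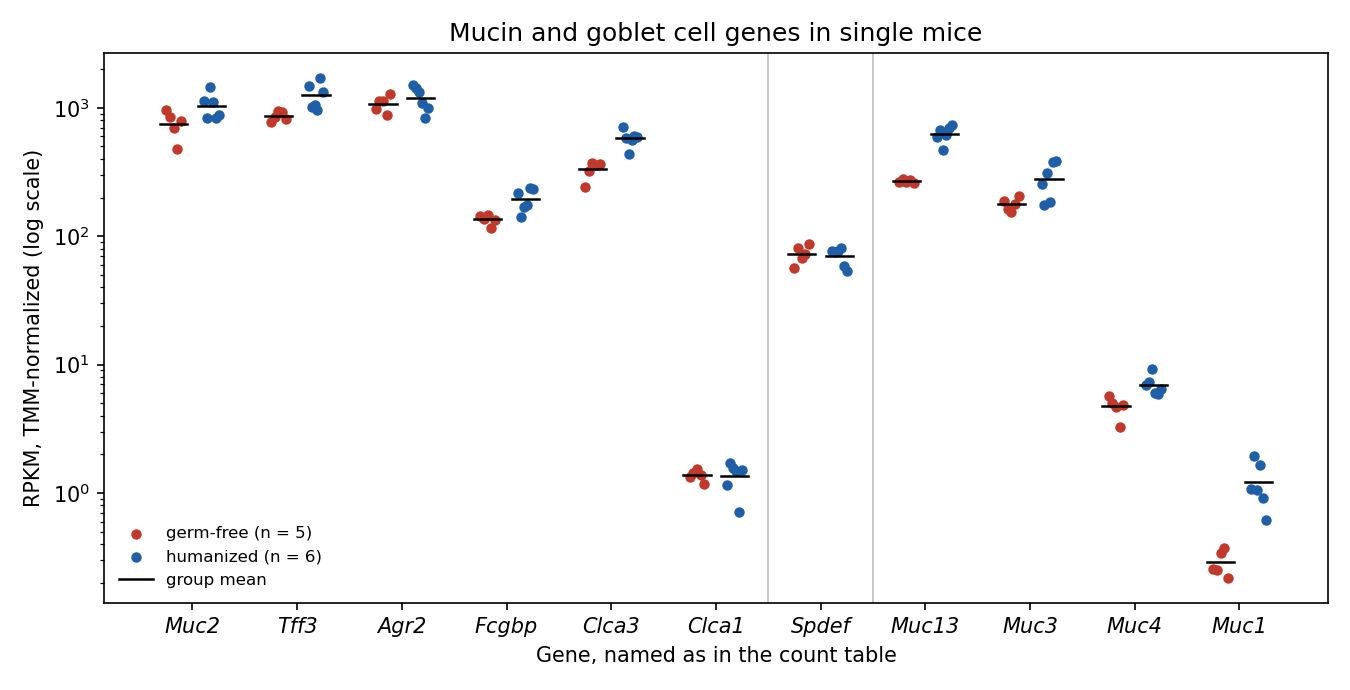
RPKM of the 10 genes and of the gene named *Clca3* in every mouse, on a log axis, with red points for 5 germ-free mice, blue points for 6 humanized mice and black lines for group means. Vertical lines separate secreted products, the transcription factor *Spdef* and transmembrane mucins. The points of *Muc13* lie between 260 and 278 RPKM in germ-free mice and between 465 and 735 RPKM in humanized mice.

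*Muc2*, on chromosome 7 from 141690340 to 141754693 of mm10, was among the most abundant transcripts of the colon. It took 0.362% to 0.760% of all counts in germ-free mice and 0.516% to 1.07% in humanized mice. Its RPKM was 956, 847, 694, 477 and 788 in germ-free mice 1 to 5, and 1120, 832, 1457, 1108, 827 and 885 in humanized mice 1 to 6. Humanized mouse 3 was the highest and germ-free mouse 4 the lowest, and germ-free mouse 1 lay above 3 of the 6 humanized mice. Mean RPKM was 752 ± 181 (SD, n = 5) in germ-free and 1038 ± 244 (SD, n = 6) in humanized mice. The difference did not pass the threshold, with an LFC of 0.46 (SE 0.19, edgeR exact test FDR 0.0509). For its library-scaled count (CPM), the exact two-sided permutation p over 462 splits of the mice was 0.0563. That p fell below 0.05 without germ-free mouse 1 (exact permutation p = 0.0381), humanized mouse 2 or humanized mouse 5 (exact permutation p = 0.0476 each). Without any other single mouse the exact permutation p stayed above 0.05, up to 0.133.

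*Tff3*, on chromosome 17 from 31125306 to 31129646, had a level per kilobase like that of *Muc2*. In germ-free mice 1 to 5 its RPKM was 770, 844, 938, 930 and 817. In humanized mice 1 to 6 it was 1464, 1022, 1042, 963, 1705 and 1325. All humanized mice lay above all germ-free mice, although humanized mouse 4 did so by a narrow margin and mice 1, 5 and 6 were the highest. *Tff3* rose with an LFC of 0.54 (SE 0.14, edgeR exact test FDR 0.00196). Without germ-free mouse 1 or germ-free mouse 5, the FDR of *Tff3* was 0.0129 and 0.0105.

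*Fcgbp*, on chromosome 7 from 28071236 to 28120862, encodes a large mucus protein whose repeated von Willebrand factor D domains resemble those of MUC2. Its RPKM was 143, 137, 147, 117 and 133 in germ-free mice and 215, 141, 169, 175, 238 and 234 in humanized mice. Humanized mouse 2 fell inside the germ-free range and the other 5 lay above it. *Fcgbp* rose with an LFC of 0.53 (SE 0.14, edgeR exact test FDR 0.00115). The FDR of its quasi-likelihood test was 0.0133, beside 0.0148 for *Tff3*.

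*Agr2*, on chromosome 12 from 35992907 to 36004087, was at 971, 1133, 1126, 881 and 1277 RPKM in germ-free mice. It was at 1496, 1424, 1335, 1082, 832 and 992 RPKM in humanized mice. The humanized mice held both the highest and the lowest values of all 11 mice, so the germ-free range lay inside theirs. *Agr2* had an LFC of 0.15 (SE 0.16, edgeR exact test FDR 0.541). Its sign turned with the scaling, to −0.03 with total counts and −0.05 with epithelial markers.

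The gene named *Clca1* in the table carries the identifier ENSMUSG00000056025, which GENCODE vM21 names *Clca3a1*. It lies on chromosome 3 from 144729677 to 144760977 and is a relative of the goblet cell gene. Its RPKM had a mean of 1.37 ± 0.137 (SD, n = 5) in germ-free and 1.35 ± 0.367 (SD, n = 6) in humanized mice, with an LFC of −0.02 (SE 0.19, edgeR exact test FDR 0.968). Its sign turned positive without germ-free mouse 3, humanized mouse 1 or humanized mouse 5, the last giving the highest value (0.11). The gene that GENCODE vM21 names *Clca1*, also known as gob-5, is ENSMUSG00000028255, on chromosome 3 from 145004537 to 145032776, and the table names it *Clca3*. It was added to the description after its values were seen.

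*Clca3* of the table, the mucus metalloprotease CLCA1 by its identifier, was at 243, 321, 370, 360 and 365 RPKM in germ-free mice. In humanized mice it was at 702, 579, 440, 559, 602 and 597 RPKM. The groups did not overlap, with humanized mouse 3 nearest to the germ-free mice. It rose with an LFC of 0.81 (SE 0.13, edgeR exact test FDR 1.14e-07), and its quasi-likelihood FDR was 0.00132. Scaled to epithelial markers, *Clca3* had an LFC of 0.57 with an FDR of 5.24e-06. With this gene in place of the one named *Clca1*, 7 of 10 genes were called higher and the median LFC was 0.55.

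*Spdef*, on chromosome 17 from 27714352 to 27728951, was at 56.7, 80.7, 67.6, 72.7 and 87.0 RPKM in germ-free mice and at 76.3, 75.3, 76.2, 81.4, 59.1 and 53.7 RPKM in humanized mice. The groups overlapped throughout. Its LFC was −0.05 (SE 0.13, edgeR exact test FDR 0.821), and it had a positive sign without germ-free mouse 5 (0.02) or humanized mouse 6 (0.01).

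Among the transmembrane mucins, *Muc13* was the most abundant per kilobase and changed with the smallest error. *Muc13* lies on chromosome 16 from 33794037 to 33819934. Its RPKM was 263, 278, 263, 273 and 260 in germ-free mice and 595, 667, 465, 616, 700 and 735 in humanized mice. The germ-free mice were nearly alike, with a coefficient of variation of 2.83% beside a median of 10.4% over all tested genes, and the lowest humanized mouse, mouse 3, stood far above them. *Muc13* rose 2.35-fold (LFC 1.24, SE 0.11, edgeR exact test FDR 1.23e-25). The exact permutation p was 0.00216, the smallest that 5 against 6 mice can give. *Muc13* shares 184 exon bases with *Gm15657* on the other strand, and whether reads were counted by strand is not stated in the sources used here.

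*Muc1*, on chromosome 3 from 89229057 to 89233381, was scarce, with 31 to 55 counts in germ-free and 72 to 170 counts in humanized mice. Its RPKM was 0.257, 0.252, 0.343, 0.375 and 0.220 in germ-free mice. In humanized mice it was 1.08, 1.95, 1.06, 1.66, 0.915 and 0.612. All humanized mice lay above all germ-free mice, with mouse 2 the highest and mouse 6 the lowest of them. *Muc1* rose 4.18-fold (LFC 2.06, SE 0.30, edgeR exact test FDR 1.54e-08). Its mean level in humanized mice, 1.21 RPKM, was at the 30.0th percentile of tested genes, whereas *Muc2* and *Muc13* were at the 99.8th and 99.7th.

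*Muc4*, on chromosome 16 from 32735886 to 32782391, was at 5.74, 5.03, 4.69, 3.29 and 4.87 RPKM in germ-free mice and at 6.88, 7.27, 9.30, 5.96, 5.92 and 6.42 RPKM in humanized mice. The groups did not overlap, but the highest germ-free mouse, mouse 1, came close to the lowest humanized mouse, mouse 5. *Muc4* rose with an LFC of 0.56 (SE 0.14, edgeR exact test FDR 0.00159). It shares 627 exon bases with *Muc20*, the neighbouring mucin on the other strand.

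*Muc3*, on chromosome 5 from 137134924 to 137149320, was at 189, 164, 155, 179 and 207 RPKM in germ-free mice and at 254, 174, 310, 183, 379 and 382 RPKM in humanized mice. The counted length of *Muc3* was 1939 bases, and its RefSeq start site, at 137166046, lies outside the counted gene. Its level per kilobase rests on that gene model. Humanized mice 2 and 4 lay inside the germ-free range, and mice 5 and 6 were the highest. *Muc3* rose with an LFC of 0.65 (SE 0.20), but its edgeR exact test FDR of 0.00964 was close to the threshold. The call was lost in 9 of the 11 fits that each left out 1 mouse, with FDR values of *Muc3* up to 0.0418. A gene nearby, *A630081J09Rik*, which GENCODE vM21 names *Muc3a*, had an LFC of 0.03 (SE 0.13, edgeR exact test FDR 0.887) and was named after its values were seen.

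**Figure D2:**
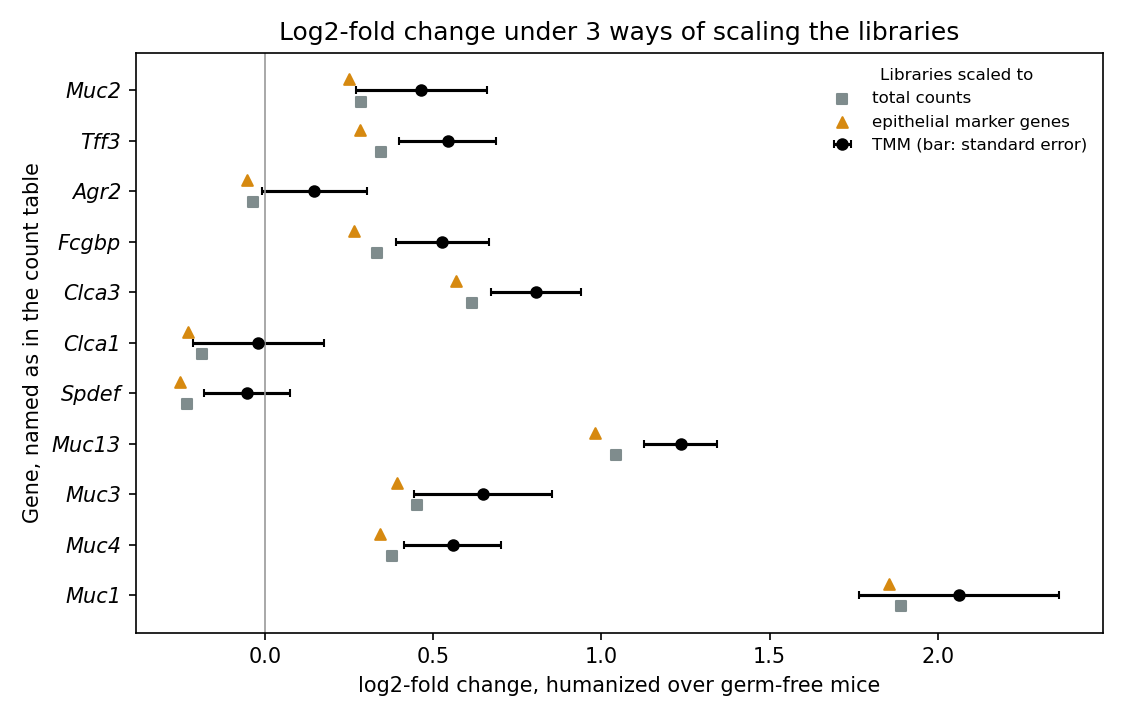
Log2-fold change of humanized over germ-free mice for the 10 genes and *Clca3* (horizontal axis). Black circles are TMM-scaled values with standard errors, grey squares are values with libraries scaled to total counts, and orange triangles are values with libraries scaled to 11 epithelial markers. *Agr2* lies at 0.15, −0.03 and −0.05 under the 3 scalings, and *Muc13* at 1.24, 1.04 and 0.98.

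The sequence before the start site is shown for *Muc2*, whose groups overlapped, and for *Muc13* and *Muc1*, the only 2 of the 10 genes called under every setting tried. The 250 bases are those of RefSeq on GRCm38.p6, a C57BL/6J reference and not the Swiss Webster genome of these mice, written 5′ to 3′ in lower case, and capitals mark matches on either strand to one of 6 motifs. The letters searched were TATAAA, the letters of a TATA box, CATAAA for the intestinal CDX factors, AGATAA for the GATA factors, TGTTTNC for the FOXA factors and TTCNNNGAA for the STAT factors, besides a motif of NF-kB.
Muc2, chr7:141690090-141690339, plus strand: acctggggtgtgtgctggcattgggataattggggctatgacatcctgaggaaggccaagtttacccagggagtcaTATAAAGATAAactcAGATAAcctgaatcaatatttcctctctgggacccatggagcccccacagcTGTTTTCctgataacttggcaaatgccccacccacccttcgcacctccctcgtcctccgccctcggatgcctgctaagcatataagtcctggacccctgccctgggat
Muc13, chr16:33793787-33794036, plus strand: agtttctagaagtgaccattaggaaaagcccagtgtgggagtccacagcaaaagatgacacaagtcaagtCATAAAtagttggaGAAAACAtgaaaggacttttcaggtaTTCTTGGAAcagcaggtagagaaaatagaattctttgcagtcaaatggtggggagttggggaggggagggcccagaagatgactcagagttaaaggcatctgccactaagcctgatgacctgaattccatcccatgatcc
Muc1, chr3:89228806-89229055, plus strand: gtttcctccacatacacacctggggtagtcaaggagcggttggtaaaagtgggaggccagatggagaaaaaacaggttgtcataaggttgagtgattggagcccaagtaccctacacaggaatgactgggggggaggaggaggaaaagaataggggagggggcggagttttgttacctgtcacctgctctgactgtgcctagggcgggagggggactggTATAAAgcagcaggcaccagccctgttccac
In the *Muc2* window the letters TATAAA, which lie 174 bases before the start, overlap the first of 2 GATA matches, and a FOXA match follows. The window of *Muc13*, before the first of its 2 RefSeq start sites, holds 1 CDX, 1 FOXA and 1 STAT match. The window of *Muc1* holds only the letters TATAAA, 31 bases before the start. Among 32851 RefSeq promoter windows of the same length, 12.4% hold TATAAA, 10.8% CDX, 9.99% GATA, 17.8% FOXA, 7.02% STAT and 0.356% NF-kB. These matches describe letters in the reference and were not measured as binding sites. RefSeq windows were found for 9 of the 10 genes, all except *Tff3*.

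To ask whether the secreted mucin and the membrane mucins changed by different amounts, the count of *Muc2* was divided by that of each transmembrane mucin within each mouse. Such a ratio does not depend on how the library is scaled. The log2 ratio of *Muc2* to *Muc1* fell by 1.52 from germ-free to humanized mice, with means of 12.94 ± 0.67 (SD, n = 5) and 11.42 ± 0.67 (SD, n = 6) and an exact permutation p of 0.00866. Adjusted by Benjamini–Hochberg over the 4 ratios, the permutation p was 0.0346. The groups still overlapped, because the ratio of germ-free mouse 4 (11.92) lay below those of humanized mice 3 (12.03) and 6 (12.10).

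The ratio to *Muc13* differed by −0.75 between the groups, from 2.68 ± 0.40 (SD, n = 5) to 1.94 ± 0.55 (SD, n = 6), with an exact permutation p of 0.0476 and an adjusted permutation p of 0.0952. Humanized mouse 3, which had the highest *Muc2* and the lowest *Muc13* of its group, had a ratio of 2.88 and lay within the germ-free range of 2.04 to 3.09. In 9 of the 11 tests that each left out 1 mouse, the unadjusted exact permutation p for *Muc13* was above 0.05, from 0.0714 to 0.110. The ratios to *Muc3* and *Muc4* differed by −0.11 and −0.09, with exact permutation p values of 0.749 and 0.465. The SDs of the log2 ratio to *Muc3* were 0.39 in germ-free and 0.61 in humanized mice, several times the difference. Of the 4 ratios, only that to *Muc1* had an adjusted p below 0.05 over all mice. With 1 mouse left out at a time, the exact permutation p of the *Muc1* ratio was 0.00476 to 0.0238, and its adjusted permutation p was 0.0190 to 0.0952 and above 0.05 in 9 of the 11 tests.

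**Figure D3:**
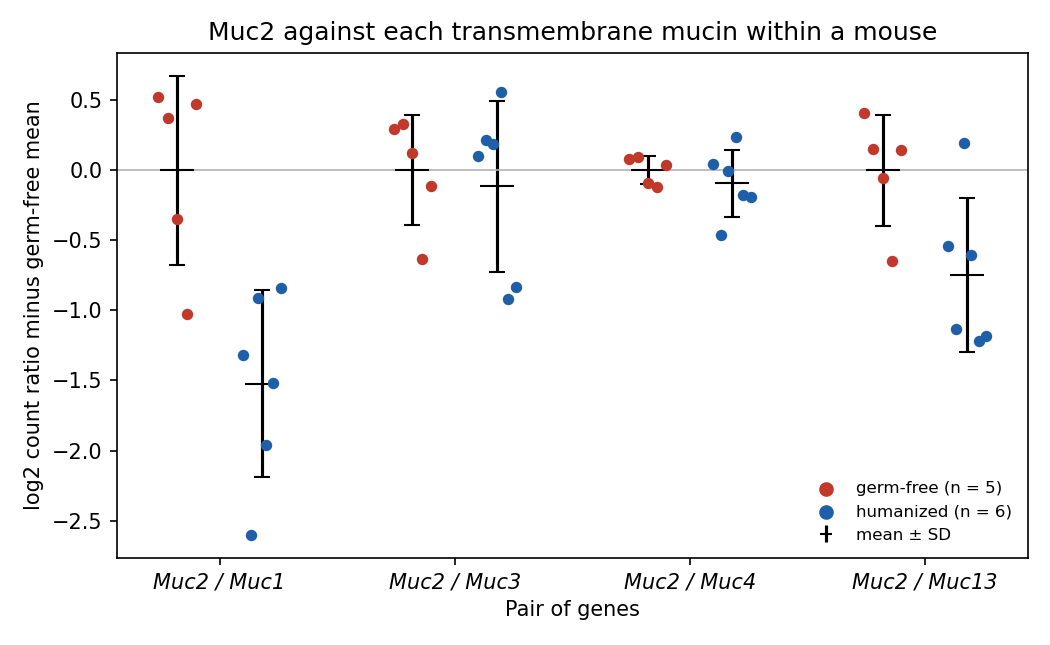
Log2 ratio of *Muc2* counts to those of each transmembrane mucin in every mouse, set against the germ-free mean (vertical axis), with red points for 5 germ-free mice, blue points for 6 humanized mice and black bars for the mean ± SD. The humanized mean lies 1.52 below the germ-free mean for *Muc1*, 0.75 below for *Muc13*, 0.11 below for *Muc3* and 0.09 below for *Muc4*.

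The shares of the 4 transmembrane mucins in their summed level per kilobase were taken in each mouse and averaged, with no test. They rest on the counted gene models, and the RefSeq start of *Muc3* lies outside its model, as given above. On average *Muc13* made up 59.3% of the summed level of the 4 in germ-free and 68.9% in humanized mice, while *Muc3* made up 39.5% and 30.2%. The ranges overlapped, at 55.1% to 62.2% and 59.2% to 78.5% for *Muc13*, and humanized mouse 3 had shares like the germ-free mean, with *Muc13* at 59.2% and *Muc3* at 39.5%. *Muc4* made up 1.05% and 0.783%, and *Muc1* 0.0645% and 0.139%. Averaged over the 4 genes, each humanized mouse stood 1.03 to 1.18 above the germ-free mean in log2 CPM. The largest of the 4 differences was that of *Muc1* in humanized mice 1 to 5 and that of *Muc13* in mouse 6. Humanized mouse 3 had the highest *Muc4* and the lowest *Muc13* of its group. The 5 secreted products, with the gob-5 gene in place of *Clca3a1*, stood 0.35 to 0.73 above the germ-free mean in humanized mice. Both averages are descriptions and were not tested.

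Humanized mice 5 and 6 had the highest *Fcgbp*, *Muc3* and *Muc13* of their group and the lowest *Agr2* and *Spdef*. They were also the highest of their group in the summed level of the epithelial markers (7135 and 7087 RPKM, beside 5104 to 6663 RPKM in mice 1 to 4) and of the absorptive colonocyte markers (10746 and 14066 RPKM, beside 8465 to 9952 RPKM). In other markers they differed from each other. *Acta2*, the actin of smooth muscle, was lowest of all mice in mouse 5 (9.09 RPKM) and highest of the humanized mice in mouse 6 (74.0 RPKM), and *Fabp6* was at 21.8 and 132 RPKM. Without humanized mouse 6, 5 of the 10 genes were called, with *Muc3* lost (FDR 0.0333 in edgeR's exact test). The part of these tissue differences in the values of the 10 genes was not tested.

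**Figure D4:**
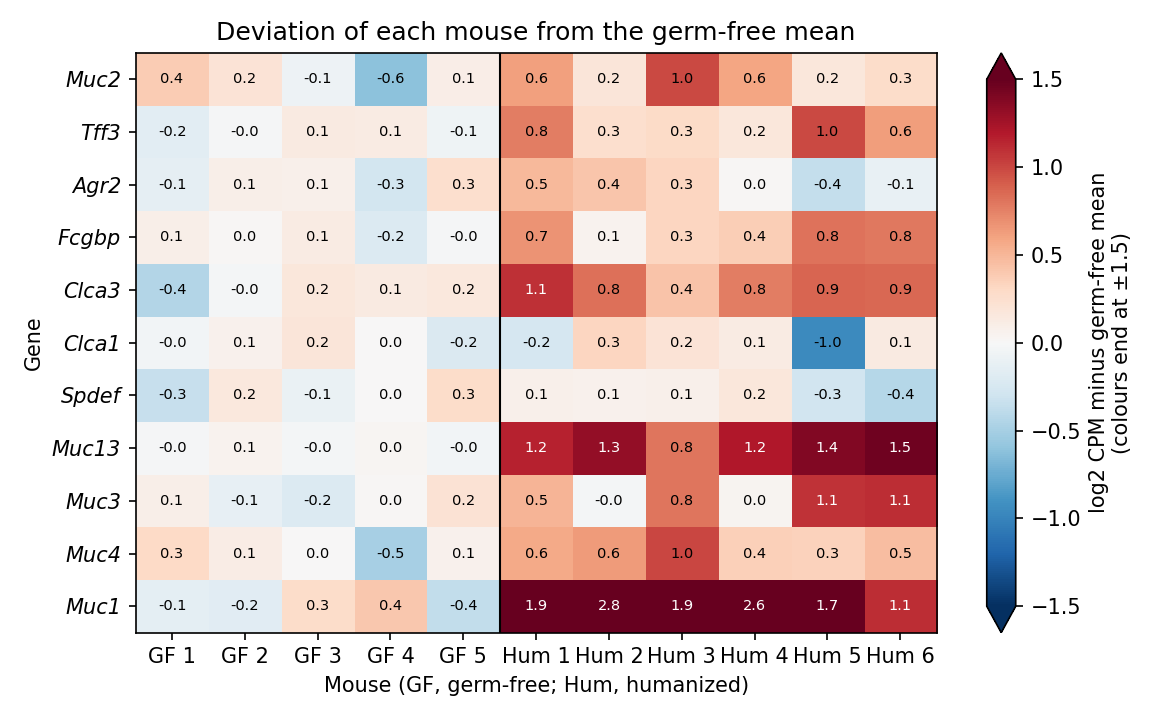
Log2 CPM of each gene in each mouse minus the germ-free mean of that gene, with red for higher and blue for lower values, colours ending at ±1.5. Rows are the 10 genes and *Clca3*, columns are 5 germ-free (GF) and 6 humanized (Hum) mice. *Muc13* and *Muc1* are red in all 6 humanized mice, whereas *Agr2* and *Spdef* are red in some and blue in mice 5 and 6.

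The wider machinery of mucus was read from 6 lists of 89 genes, of which 85 were found in the table by name and 78 of those were tested. Of these, 26 were called higher and 5 lower, with a median LFC of 0.26. That is 39.7% of the 78, beside 19.3% of all tested genes. Of all tested genes 9.20% were called higher and 10.1% lower, and the counts of the single lists below stand beside these shares. Scaled to total counts, 12 were called higher and 7 lower, 24.4% beside 22.1% of all tested genes. Scaled to epithelial markers, 7 were called higher and 5 lower, with a median LFC of 0.04, and this 15.4% was near the 16.4% of all tested genes.

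Of 12 other mucins, 3 were found by name and tested, of which 1 was called higher and none lower. *Muc3a* of this list stands in the table as *A630081J09Rik* and so was not counted. It was tested and not called, as given above. *Muc20*, a small transmembrane mucin, rose from 1.47 ± 0.150 (SD, n = 5) to 2.30 ± 0.446 RPKM (SD, n = 6), with an LFC of 0.64 (edgeR exact test FDR 0.00133), and shares exon bases with *Muc4* as given above. The call of *Muc20* was lost without germ-free mouse 4 (edgeR exact test FDR 0.0110), with total counts (LFC 0.47, edgeR exact test FDR 0.0493) and with epithelial markers (LFC 0.43, edgeR exact test FDR 0.186). *Emcn*, the sialomucin endomucin of blood vessel endothelium, was at 1.32 ± 0.129 (SD, n = 5) and 0.544 ± 0.321 RPKM (SD, n = 6), with groups that did not overlap and an LFC of −1.28 (edgeR exact test FDR 0.0149). Scaled to total counts, *Emcn* was called lower (LFC −1.43, edgeR exact test FDR 0.00983). Of the gel-forming mucins of stomach and airway, *Muc5ac* had at most 1 count and *Muc5b* at most 13 counts in any mouse. *Muc6* had 88 to 160 counts in germ-free and 52 to 452 in humanized mice, the highest in mouse 3, and was not called (LFC 0.59, SE 0.49, edgeR exact test FDR 0.418). In humanized mouse 3 *Muc6* was at 1.02 RPKM and in the other humanized mice at 0.111 to 0.355 RPKM. Germ-free mice held 0.180 to 0.292 RPKM. *Emcn*, *Muc5ac*, *Muc5b* and *Muc6* were named after their values were seen.

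Of 11 other secreted goblet products tested, 4 were called higher and 2 lower. *Zg16*, a lectin-like mucus protein that binds Gram-positive bacteria, was the most abundant and rose from 1821 ± 191 (SD, n = 5) to 2651 ± 523 RPKM (SD, n = 6), with an LFC of 0.54 (edgeR exact test FDR 0.000619). The call of *Zg16* was lost with the quasi-likelihood test (FDR 0.0104) and with epithelial marker scaling (LFC 0.29, edgeR exact test FDR 0.0226). *Dmbt1*, a scavenger receptor protein of mucosal secretions, rose with an LFC of 0.74 (edgeR exact test FDR 5.99e-14). *Retnlb*, which encodes the antimicrobial RELMβ, had an LFC of 3.06 (SE 0.53, edgeR exact test FDR 1.70e-07). The rise of *Retnlb* was uneven, with 4.98 to 9.69 RPKM in germ-free mice and 22.4 to 182 RPKM in humanized mice, the highest value being that of mouse 6, without which its LFC was 2.43. *Itln1*, the lectin intelectin-1, fell from 8.21 ± 1.85 (SD, n = 5) to 2.81 ± 0.984 RPKM (SD, n = 6), an LFC of −1.55 (edgeR exact test FDR 9.58e-09).

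*Reg4* and *Tff2* of the same list were named after their values were seen, because 1 mouse turned the direction of the first and set much of the size of the second. *Reg4* was at 1063 RPKM in humanized mouse 6 and at 40.1 to 77.6 RPKM in the other 5, beside 78.6 to 161 RPKM in germ-free mice. Its LFC was 1.0 (edgeR exact test FDR 0.389) with that mouse and −0.94 (edgeR exact test FDR 0.000264) without it. *Tff2*, a trefoil peptide of the stomach, was at 31.0 RPKM in germ-free mouse 1 and at most 5.21 RPKM in every other mouse. *Tff2* was lower in humanized mice with germ-free mouse 1 (LFC −4.13, edgeR exact test FDR 2.89e-05) and without it (LFC −2.70, edgeR exact test FDR 0.000157).

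Of 9 transcription factors of the secretory lineage, 1 was called, *Bhlha15* (LFC 1.94, SE 0.45, edgeR exact test FDR 0.000334), which was named after its value was seen. *Bhlha15* was scarce, at 0.304 RPKM in germ-free and 1.17 RPKM in humanized mice, and its groups overlapped. *Klf4*, the most abundant of the list, was at 113 ± 3.73 (SD, n = 5) and 132 ± 24.5 RPKM (SD, n = 6), with an LFC of 0.23 (edgeR exact test FDR 0.123) that turned to −0.02 with epithelial markers. The median LFC of the 9 factors was 0.05, near that of *Spdef*.

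Of 15 genes for folding of mucins in the endoplasmic reticulum, 6 were called higher and none lower (median LFC 0.41). *Xbp1*, a transcription factor of the unfolded protein response, rose with an LFC of 0.60 (edgeR exact test FDR 1.52e-06). The protein disulfide isomerase *P4hb*, the most abundant of the list, rose from 202 ± 5.72 (SD, n = 5) to 259 ± 28.5 RPKM (SD, n = 6), and the chaperone *Dnajb11* from 31.3 ± 1.39 (SD, n = 5) to 38.9 ± 3.52 RPKM (SD, n = 6). None of the 15 was called with libraries scaled to epithelial markers, where 16.4% of all tested genes were called. Most of these genes serve secretory cells in general, plasma cells included. *Ern2*, the stress sensor of mucous epithelia, had the lowest LFC of the list, 0.03 (SE 0.11, edgeR exact test FDR 0.898). *Hspa5*, the chaperone BiP, was highest in humanized mice 1 to 3 (128, 124 and 118 RPKM, beside 63.8 to 79.7 RPKM in mice 4 to 6), as was *Bhlha15*. *Cd79a*, a B cell marker, was called higher (LFC 1.62, SE 0.51, edgeR exact test FDR 0.00911) but not by the quasi-likelihood test (FDR 0.0318). It was highest in humanized mice 3 and 2 (8.08 and 5.89 RPKM), whereas mouse 1, the highest in *Hspa5*, had 2.13 RPKM, below mouse 4 (2.70 RPKM). *Hspa5*, *Ern2* and *Cd79a* were named after their values were seen, and the part of B lineage cells in the folding genes was not tested.

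Of 22 O-glycosylation genes tested, 8 were called higher and 1 lower (median LFC 0.27). Scaled to epithelial markers, 3 were called higher and 1 lower (median LFC 0.03), and scaled to total counts, 5 and 1 (median LFC 0.08). Under these scalings 16.4% and 22.1% of all tested genes were called. The galactosyltransferase *B3galt5* rose with an LFC of 1.11 (edgeR exact test FDR 1.48e-09), from 39.4 ± 7.45 (SD, n = 5) to 84.8 ± 17.99 RPKM (SD, n = 6). *B4galnt2*, which makes the Sda glycan and was the most abundant of the list, rose from 239 ± 19.6 (SD, n = 5) to 365 ± 51.8 RPKM (SD, n = 6). The sialyltransferase *St3gal1* (LFC 0.78), the core chain enzyme *B3gnt3* (LFC 0.62), the fucosyltransferase *Fut2* (LFC 0.58) and the initiating enzyme *Galnt12* (LFC 0.46) also rose without overlap of the groups. Over 21 alternative settings, *B3galt5* and *St3gal1* kept their call in all, *Fut2* and *B4galnt2* in 20, and *B3gnt3* and *Galnt12* in 19.

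Of 18 genes for granule release and mucus unfolding, 6 were called higher and 2 lower (median LFC 0.24). With epithelial markers 1 was called higher and 2 lower, and with total counts 2 and 3. The balance of all tested genes also moved towards lower. It went from 1827 higher and 1999 lower to 519 and 2746 with epithelial markers, and to 773 and 3609 with total counts. The share of all tested genes called in either direction was 19.3% with TMM, 16.4% with epithelial markers and 22.1% with total counts. *Rab27a*, a GTPase that docks secretory granules, rose with an LFC of 0.76 (edgeR exact test FDR 6.13e-13), and its binding partner *Sytl4* with an LFC of 0.49. *Nlrp6*, an inflammasome sensor tied to mucus secretion, rose with an LFC of 0.51 (edgeR exact test FDR 4.70e-06). Over 21 alternative settings, *Rab27a* kept its call in all, and *Sytl4* and *Nlrp6* kept theirs in 19, each with an LFC down to 0.26. *Mep1a*, a subunit of the brush border protease meprin, fell from 203 ± 10.8 (SD, n = 5) to 130 ± 35.2 RPKM (SD, n = 6), an LFC of −0.64 (edgeR exact test FDR 0.00113). *Mep1b*, which encodes the other meprin subunit, rose from 68.9 ± 4.67 (SD, n = 5) to 102 ± 25.3 RPKM (SD, n = 6), with overlapping groups and an LFC of 0.57 (edgeR exact test FDR 0.00145), and was named after its values were seen. Neither *Mep1a* nor *Mep1b* was called by the quasi-likelihood test (FDR 0.0126 for each).

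**Figure D5:**
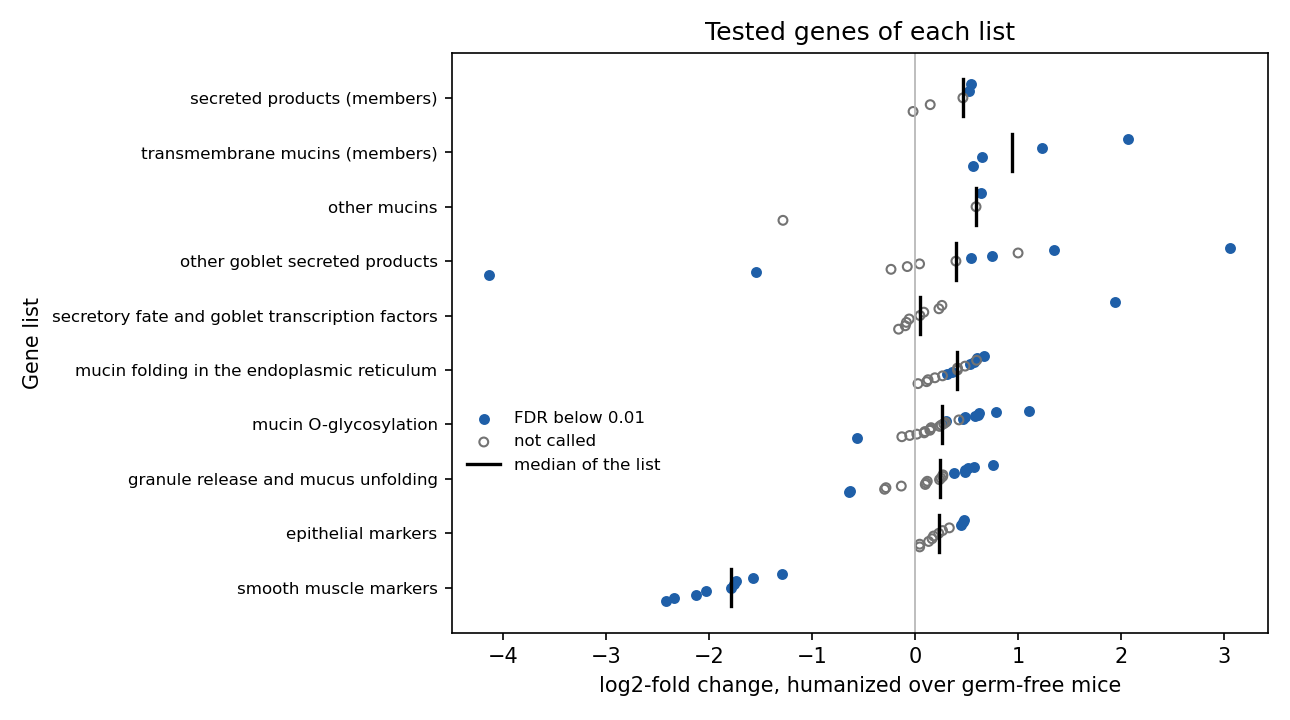
Log2-fold change of humanized over germ-free mice for each tested gene of the 2 groups of members, 6 wider lists and 2 marker lists (horizontal axis), with filled points for an FDR below 0.01, open points for other genes and black bars for list medians. The median is 0.94 for the transmembrane mucins, 0.23 for epithelial markers and −1.79 for smooth muscle markers.

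Markers of other cells were read beside these groups, with no set test. Over all tested genes, 19.3% were called, 9.20% higher and 10.1% lower. Several marker lists hold few genes, so their counts alone do not tell them from that share. Of 12 goblet cell markers that are not among the 10 genes, 4 were called higher and none lower, with a median LFC of 0.11. That median was −0.14 with epithelial marker scaling, where none was called, and −0.08 with total counts, where 1 was called. Under these scalings 16.4% and 22.1% of all tested genes were called. Their summed level ran from 3129 to 3745 RPKM in germ-free and from 3785 to 6056 RPKM in humanized mice. *Zg16* alone was at 1512 to 1998 RPKM in germ-free and 2096 to 3416 RPKM in humanized mice. The highest sum, that of humanized mouse 6, held *Spink4* at 1300 RPKM and *Reg4* at 1063 RPKM. *Spink4* was named after its values were seen. Of 10 absorptive colonocyte markers, 3 were called higher and 2 lower, and their summed level ran from 3097 to 5008 RPKM in germ-free and from 8465 to 14066 RPKM in humanized mice, mostly *Car1*. Of 5 fibroblast markers, 4 were called lower, with summed levels of 165 to 279 RPKM and 19.5 to 142 RPKM. Of 7 markers of crypt stem and cycling cells, 4 were called lower, with summed levels of 37.9 to 45.3 RPKM and 26.6 to 40.1 RPKM. Of 8 enteroendocrine markers, 3 were called higher and 3 lower, and of 6 tuft cell markers, 3 were called higher and 1 lower. Leukocyte markers had 2 of 5 called higher, *Cd79a* among them. Paneth cell and small intestine markers had 2 of 5 tested called lower, and their summed level in humanized mice ran from 17.2 to 161 RPKM. The highest sum was that of mouse 6, of which 132 RPKM was *Fabp6*. Of the 7 stomach markers, *Gkn1* and *Gkn2* were at 0 in all mice and 1 of 2 tested, *Tff2*, was called lower. Genes of distal hindgut position had 1 of 2 tested called lower, with summed levels of 1.57 to 3.08 RPKM in germ-free and 0.171 to 1.30 RPKM in humanized mice. The part of the change in tissue make-up in the mucin and goblet cell values was not tested, other than by the scaling to epithelial markers.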

How the data were processed

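Polyadenylated RNA of the colon was sequenced with 101 bp paired-end reads in 5 germ-free and 6 humanized male mice. The authors deposited 1 table of raw read counts for 43346 genes with gene positions and lengths, without normalization. The submitters' processing notes name bcl2fastq 2.17.1.14, TopHat2 2.1.0, Bowtie2 2.2.3, Subread 1.4.6-p5 with featureCounts, and the build mm10. The annotation release and strand setting of the counting are not given in the sources used here. Each column was assigned to a mouse by its label.

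The published pipeline was followed in edgeR 4.0.16 under R 4.3.3. Genes of low count were removed by filterByExpr at its defaults, a minimum count of 10, a total of at least 15, and a proportion of 0.7 beyond groups of 10. After TMM scaling and estimateDisp, an exact test set humanized against germ-free mice, and p-values were adjusted by Benjamini–Hochberg, with calls at an FDR below 0.01. Standard errors came from the quasi-likelihood fit. RPKM used the deposited gene length, which equals the merged exon length of GENCODE vM21 for 8 of the 11 genes compared and so includes untranslated exons. Ratios and single genes were compared by exact two-sided permutation over 462 splits of the mice. *Muc2* ratios used raw counts with nothing added.

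Alternatives were the quasi-likelihood test, DESeq2 1.42.0, other normalizations, scaling to 11 epithelial markers, other filters and thresholds, and leaving out each mouse. A replicate block was added in the quasi-likelihood test. The fit was tested on simulated data. The labels do not say that mice came from separate litters or isolators, so p-values measure the spread between these mice. Between mice of a group the mean chi-square per gene was 21.2 to 132, far above counting noise, so no library was counted as a duplicate.

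The 10 genes and all lists were chosen with earlier results of these data known. Beyond the 10 genes, the text names from each list those called without overlap of the groups (at most 6 by absolute LFC) and the most abundant gene, and other genes where it says so. The marker genes *Fabp6*, *Acta2* and *Car1* were picked in the same way, by their values. Of the gene identifiers, 42462 matched reference names.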

Additional observations from a re-analysis of the deposited data

Results flagged for a closer look

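In 45 genes named in the text, the highest and lowest mouse of each group were tested as outliers with Dixon's criterion, 90 groups in all. In 12 groups 1 mouse lay further from the rest than the criterion allows, and chance gives about 1 in 20 groups. For 16 of the 45, the choice to name the gene followed a look at its values, in some cases because of 1 mouse. *Itln1* was at 4.79 RPKM in humanized mouse 2, with the next mouse at 2.61 RPKM, while all germ-free mice were higher still. *Klf4* was at 179 RPKM in humanized mouse 5, with the next mouse at 134 RPKM. *P4hb* was at 315 RPKM in humanized mouse 1, with the next mouse at 255 RPKM. *B4galnt2* was at 273 RPKM in germ-free mouse 2, with the next mouse at 237 RPKM, below the lowest humanized mouse at 285 RPKM. Humanized mouse 6 was the outlier for *Reg4* (1063 RPKM, next mouse 77.6 RPKM), *Fabp6* (132 RPKM, next mouse 21.8 RPKM) and *Car1* (11124 RPKM, next mouse 7663 RPKM). *Tff2* was at 31.0 RPKM in germ-free mouse 1, with the next mouse at 5.21 RPKM. *Acta2* was at 254 RPKM in germ-free mouse 4, with the next mouse at 137 RPKM. *Cd79a* was at 0.485 RPKM in germ-free mouse 2, with the next mouse at 1.25 RPKM. *Muc6* was at 1.02 RPKM in humanized mouse 3, with the next mouse at 0.355 RPKM. *Muc5ac* was at 0.00147 RPKM in germ-free mouse 1, a single count, and at 0 in all other mice.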

How the results depend on the processing

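*Muc1* and *Muc13* kept their direction and their call in all 21 alternatives, with LFC values of 1.85 to 2.19 and 0.98 to 1.31. *Muc2* kept its positive sign, at 0.25 to 0.57, and passed the threshold in none of the 21. Of the 10 genes, 6 were called in the exact test and 2 with the quasi-likelihood test (beside 2699 of all tested genes). With total counts, epithelial marker scaling or the replicate block, 2 were called in each case. The replicate block was itself fitted by the quasi-likelihood test, so its calls stand beside the 2 of that test, not the 6. Of the wider lists, 31 genes were called in the exact test, 19 with total counts (17 of them among the 31) and 12 with epithelial marker scaling. The replicate block, again with the quasi-likelihood test, called 11. All 12 and all 11 were among the 31. With medians in place of means, the log2 ratio of *Muc2* to *Muc3* differed by 0.020, of the opposite sign, and that to *Muc13* by −1.01 (exact permutation p = 0.0909). The sign of the LFC turned for *Agr2* with total counts (−0.034) and epithelial marker scaling (−0.054), for *Klf4* with epithelial marker scaling (−0.024) and for *Spdef* with the replicate block (0.022). The cause of these changes was not tested.

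Leaving out 1 mouse at a time, 4 to 6 of the 10 genes, 25 to 37 genes of the wider lists and 2880 to 4411 of all tested genes were called. The LFC then ran from −0.10 to 0.11 for *Clca1* and from −0.13 to 0.018 for *Spdef*. The log2 ratio of *Muc2* differed by −0.27 to 0.046 for *Muc3* and by −0.94 to −0.65 for *Muc13*. Differences in mean CPM ran from 1439 to 2399 for *Muc2*, from −0.348 to 0.436 for *Clca1*, from −14.6 to 1.95 for *Spdef* and from 157 to 238 for *Muc3*.

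The replicate numbers belong to different mice, and deviations of mice with the same number correlated at −0.133 to 0.0910, so the numbers share no more than a label. With the replicate block, fitted by the quasi-likelihood test, 1012 of all tested genes were called, beside 2699 by that test without the block. Counts of *Muc1* limit its precision, since no germ-free mouse had more than 55.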
